A study of Mus musculus with 5 samples.

Results

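The genes of 43 enzymes that write or erase histone methylation, or remove histone acetylation, were examined for Gfi1 and Lsd1 binding at their transcriptional start sites. They were taken from a list of names that comprised histone methyltransferases, demethylases other than Kdm1a, the core of Polycomb repressive complex 2 and deacetylases other than Hdac1 and Hdac2. They make up 43 of 21938 protein-coding genes in the annotation. Binding was read from chromatin immunoprecipitation and sequencing (ChIP-seq) of 2 MG medulloblastomas of the mouse, numbered 39 and 41. MG tumors were made from prominin-1-positive, lineage-negative cerebellar stem cells of C57BL/6 pups, aged 5 to 7 days by the study's reporting summary. Its methods give a slightly younger range of ages. The cells received retroviruses encoding Myc T58A and Gfi1 and were transplanted into NSG mice, which lack lymphocytes and let foreign grafts grow. Gfi1 was thus supplied by a virus in both tumors, and no tumor without it was profiled. Each factor was immunoprecipitated from frozen tissue of both tumors, which gave 4 libraries with 2 replicates per factor (replicate 1 from tumor 39, replicate 2 from tumor 41). The listed input control is chromatin pooled from MGB tumors, driven by Myc with Gfi1b, and the sources do not state which libraries it was used for.

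Gfi1 is a zinc finger repressor that recruits Lsd1 through its SNAG domain. Lsd1, encoded by Kdm1a, removes methyl groups from lysine 4 of histone H3 (H3K4) and acts in a complex with CoREST and histone deacetylases. H3K4 methylation marks active promoters and enhancers, whereas methylation of H3K9 and H3K27 marks silenced chromatin. Methyltransferases and demethylases set the level of each mark, and the group holds enzymes that add the mark removed by Lsd1 as well as enzymes that act on other marks.

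Each deposited list holds the position of every peak and a score, and scores are not comparable between libraries. The score of a peak was therefore turned into a percentile, which is its rank from the lowest score as a share of the list. Peaks with tied scores took their mean rank. A peak was counted at a gene when it came within 1000 bp of any annotated start site, and the highest such peak represented the gene. The lists held 36836 and 25078 peaks for Gfi1 and 30367 and 33213 peaks for Lsd1, in tumors 39 and 41. They carry no read counts, so the depth behind a peak is unknown, and the number of tumors limits the precision. With 2 tumors per factor, an unpaired exact permutation test cannot give a two-sided p below 0.333, so values are given with the spread between tumors. A peak in such bulk tissue cannot tell a larger share of bound cells from denser binding in each. Peaks do not measure expression, so the tumor label was not checked against marker genes.

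Upstream sequence is shown for the 3 genes with the highest mean percentile and the 2 with the lowest, to set the strongest and the weakest sites beside each other. The bases lie upstream of the start site nearest to the peak midpoints, in the GRCm38 build (mm10), and end where an annotated exon begins. Capitals mark CpG dinucleotides.

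The Kmt2e stretch lies at chr5:23434270-23434440 on the plus strand, next to the start site. Kdm6b is shown at chr11:69413676-69413875 on the minus strand, also next to the start site. For Kmt5b the bases are chr19:3767323-3767420 on the plus strand, ending 103 bp before the start site. For Hdac11 they are chr6:91156618-91156664 on the plus strand, ending 154 bp before it. The Hdac9 bases at chr12:34906980-34907179, on the minus strand, adjoin the start site.

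Kmt2e: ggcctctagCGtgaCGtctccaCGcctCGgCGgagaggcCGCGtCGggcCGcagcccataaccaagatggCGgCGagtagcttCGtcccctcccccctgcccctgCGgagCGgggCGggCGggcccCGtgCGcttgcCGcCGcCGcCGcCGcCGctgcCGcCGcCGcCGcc
Kdm6b: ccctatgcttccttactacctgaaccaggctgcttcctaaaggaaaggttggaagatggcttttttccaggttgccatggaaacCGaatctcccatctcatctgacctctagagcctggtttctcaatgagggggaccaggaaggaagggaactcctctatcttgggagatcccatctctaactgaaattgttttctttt
Kmt5b: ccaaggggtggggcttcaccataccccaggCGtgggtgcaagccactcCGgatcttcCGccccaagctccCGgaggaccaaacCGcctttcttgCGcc
Hdac11: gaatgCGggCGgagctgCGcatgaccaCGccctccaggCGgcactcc
Hdac9: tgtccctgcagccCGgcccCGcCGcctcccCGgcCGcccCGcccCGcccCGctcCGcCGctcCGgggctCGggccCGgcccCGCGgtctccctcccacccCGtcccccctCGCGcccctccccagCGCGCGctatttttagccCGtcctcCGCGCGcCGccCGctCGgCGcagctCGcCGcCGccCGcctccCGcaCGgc

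The stretches printed for the strong sites do not share one base composition. The 171 bases of Kmt2e hold 28 CpGs, and the 98 bases of Kmt5b hold 6. The 200 bases of Kdm6b hold 1 CpG. Hdac11 has 5 CpGs in 47 bases, and Hdac9 has 35 in 200 bases. A peak covered the whole stretch in all 4 lists for each of these genes except Hdac9, for which this was so in 0 lists. The peaks reach well beyond the stretches. Within 500 bp of a start site the largest CpG count was 91 at Kmt2e, 43 at Kdm6b and 129 at Kmt5b. It was 45 at Hdac11 and 115 at Hdac9.

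Peaks of both factors were present at nearly every gene of the group. A peak lay at a start site of all 43 genes in the Gfi1 list of tumor 39, against 65.0% of all protein-coding genes. The Gfi1 list of tumor 41 had one at 42 of 43 genes, against 54.3%. In the Lsd1 lists all 43 genes had a peak in both tumors, against 58.5% and 61.7%. In all 4 lists together a peak was found at 42 genes, against 53.1% of all genes. The gene without a peak in 1 list was Hdac9.

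Most of these genes start in CpG-rich sequence, which is a property shared by many bound genes. At least 1 start site was CpG-rich in 39 of the 43 genes (90.7%), against 51.2% of all genes, where CpG-rich means a GC content of 50% or more and a CpG observed over expected ratio of 0.6 or more within 500 bp. The exceptions were Kdm6b, Hdac3, Hdac10 and Hdac11. Among the 11236 genes with a CpG-rich start site, 97.6% and 85.7% had a Gfi1 peak in tumors 39 and 41, and 90.1% and 94.1% had an Lsd1 peak. A peak in all 4 lists was present at 85.0% of them. Genes with CpG-rich starts thus had peaks more often than the average gene.

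The binding at the enzyme genes stood high within each list. Gfi1 had a median percentile over the group of 94.6 in tumor 39 and 87.9 in tumor 41, and Lsd1 had 88.4 and 93.7. Over all genes with a peak, Gfi1 had 82.5 and 77.4 and Lsd1 had 79.03 and 81.0. Over those with a CpG-rich start they were 86.0, 80.2, 81.8 and 84.1 in the same order. Ranked only among the highest start-site peaks of all genes, the median enzyme gene stood at the 82.8, 70.5, 70.4 and 81.4 percentile. The enzyme genes have more annotated start sites, with a median of 8 against 3, and the highest peak was taken over all of them. With the 5′ end of the gene as its only start site, the median of the mean percentile was 89.4 for Gfi1 and 89.5 for Lsd1, against 81.5 and 80.7 over all genes.

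**Figure D1:**
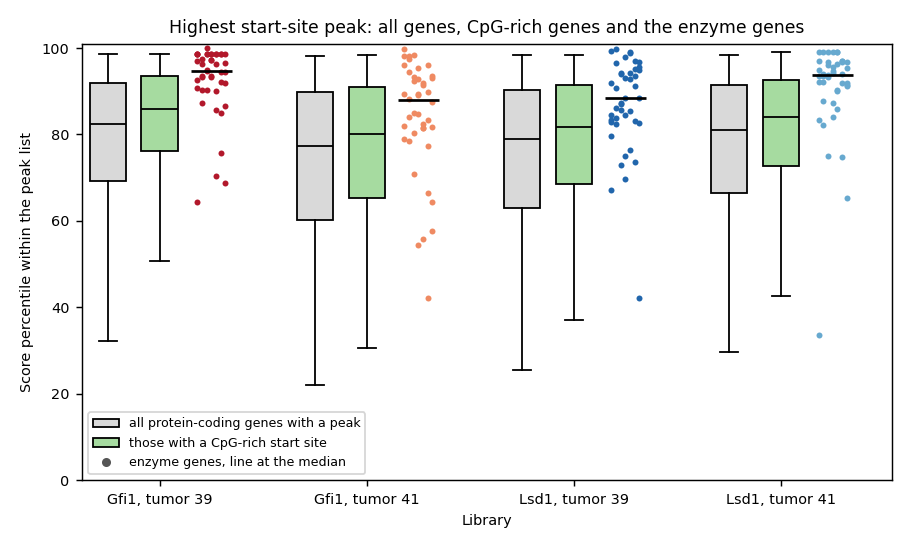
Score percentile of the highest peak at a start site in each of the 4 libraries. Grey boxes show all protein-coding genes with a peak and green boxes those with a CpG-rich start site (box, quartiles; line, median; whiskers, 5th to 95th percentile), and points are enzyme genes with a line at their median, which is 94.6, 87.9, 88.4 and 93.7 from left to right.

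A peak in the upper 20% of the list was found at 39 and 32 of the 43 genes for Gfi1, against 36.2% and 24.6% of all genes and 65.0% and 43.2% of those with a CpG-rich start. For Lsd1 this was so at 35 and 39 genes, against 28.1% and 32.2% of all genes and 48.8% and 56.6% of the CpG-rich ones. In all 4 lists at once it was so at 29 genes (67.4%), against 19.9% and 35.6%. The other 14 genes were Kdm3b, Kdm5b, Setd1b, Setd2, Setdb1, Setdb2, Ehmt1, Ehmt2, Nsd2, Ezh1, Hdac7, Hdac9, Hdac10 and Hdac11.

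Peaks were called high confidence when they lay in the upper 20% in tumor 39 and had at least 50% of their length within upper 20% peaks of tumor 41. Such a Gfi1 peak was found at 28 genes, against 22.9% of all genes and 4612 of the 11236 with a CpG-rich start. For Lsd1 there were 35 genes, against 25.9% and 45.5%. Both factors had one at 25 genes (58.1%), against 19.5% and 34.8%, and with the upper 10% in place of 20% the count was 13, against 8.04% of all genes. Gfi1 alone had one at Kdm3b, Setdb1 and Setdb2. Lsd1 alone had one at 10 genes, which were Kmt2b, Kmt2d, Setd1b, Nsd1, Nsd2, Setd2, Ehmt2, Ezh1, Hdac4 and Hdac10. Neither factor had one at Ehmt1, Kdm5b, Hdac7, Hdac9 or Hdac11.

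**Figure D2:**
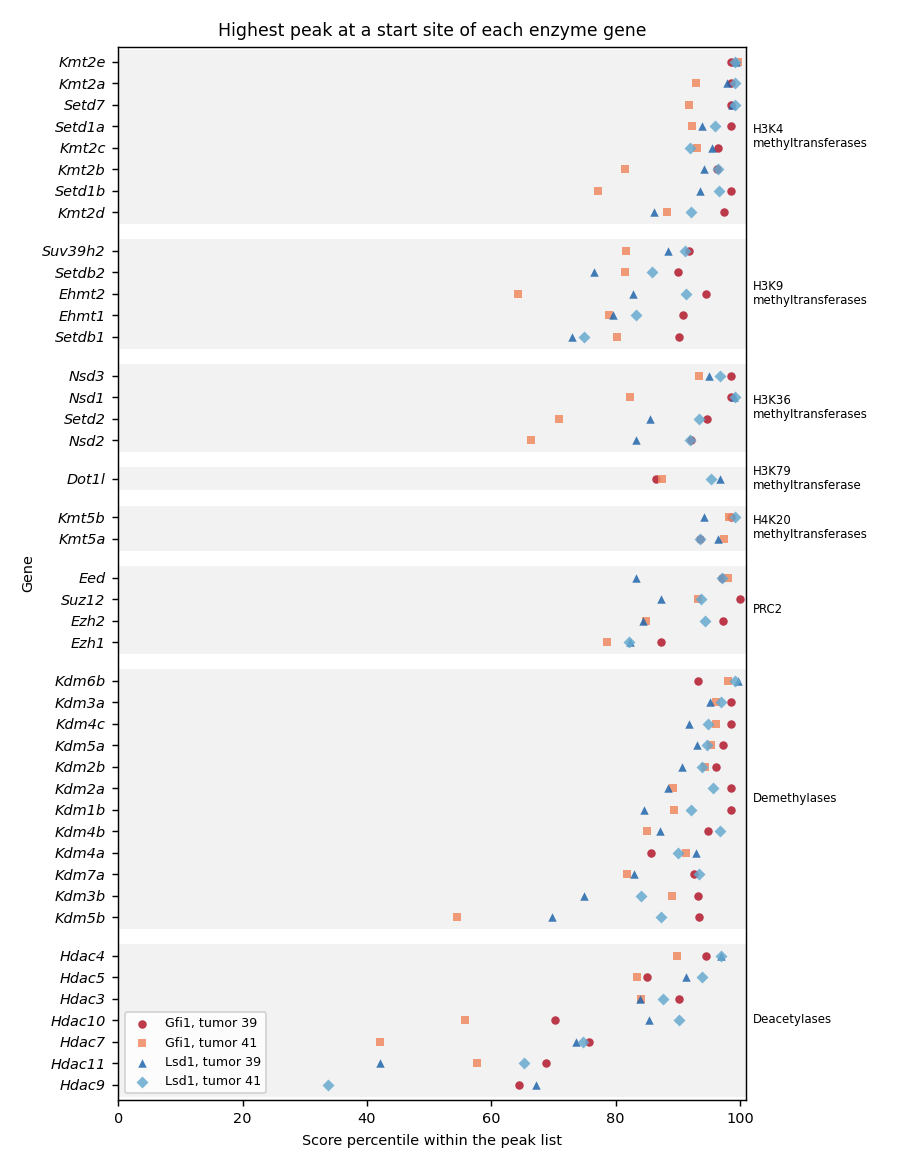
Score percentile within the list of the highest peak at a start site of each enzyme gene, for Gfi1 (circles, tumor 39; squares, tumor 41) and Lsd1 (triangles, tumor 39; diamonds, tumor 41), with genes grouped by role and ordered by their mean. The 8 H3K4 methyltransferase genes sit at 77.2 or above in every list, and the deacetylase genes reach down to 33.7.

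The H3K4 methyltransferases carry the activity opposite to that of Lsd1, and the 8 genes listed for them stood among the highest of the group. These 8 had mean percentiles over the 4 lists from 91.0 to 99.2, with a median of 94.7. A peak in the upper 20% was present in all 4 lists at 7 of the 8, Setd1b being the exception. Kmt2e encodes a member of the trithorax-related family whose own methyltransferase activity is doubtful. It stood at 98.6 and 99.7 for Gfi1 and at 99.3 and 99.2 for Lsd1 in tumors 39 and 41. Its mean of 99.2 was the highest of the group, and the tumors differed little (SD 0.759 for Gfi1 and 0.0866 for Lsd1, n = 2). The 4 peaks shared the stretch chr5:23432195-23435891, which also holds the start of 5031425E22Rik.

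Kmt2a encodes MLL1, which maintains Hox gene expression and is broken by translocations in leukaemia. It stood at 98.6 and 92.9 for Gfi1 and 97.9 and 99.2 for Lsd1. Setd7 adds a single methyl group to H3K4 and to several proteins that are no histones. Its gene stood at 98.6 and 91.8 for Gfi1 and at 98.8 and 99.2 for Lsd1. Both genes were lowest in the Gfi1 list of tumor 41, and both had high-confidence peaks of both factors.

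Kmt2b and Setd1b, which encode subunits of COMPASS-type complexes, varied more between the tumors. Kmt2b had 96.2 and 81.6 for Gfi1 and 94.1 and 96.4 for Lsd1. At Setd1b the Gfi1 percentile was 98.6 in tumor 39 and 77.2 in tumor 41, while Lsd1 stood at 93.6 and 96.7. For both genes the Gfi1 spread (SD 10.4 for Kmt2b and 15.1 for Setd1b, n = 2) exceeded the difference between the factors' means. Kmt2c, an enhancer H3K4 methyltransferase, stood at 96.5 and 93.2 for Gfi1 and at 95.5 and 91.9 for Lsd1. These Kmt2c values belong to a peak that begins 174 bp outside the gene, over the divergent 4831440E17Rik. The peak over the Kmt2c 5′ end itself was lower, at 92.4 and 51.5 for Gfi1 and at 67.2 and 78.5 for Lsd1. The remaining genes, Setd1a and Kmt2d, lay between 86.2 and 98.6.

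The H3K9 methyltransferases deposit the mark of heterochromatin, and their 5 genes stood lower, with mean percentiles from 79.6 to 88.3. Only Suv39h2, a paralogue of the first known H3K9 methyltransferase, had a peak in the upper 20% of all 4 lists and high-confidence peaks of both factors. Setdb1, which silences endogenous retroviruses, stood at 90.3 and 80.2 for Gfi1 and at 73.1 and 74.9 for Lsd1. It was thus higher for Gfi1 in both tumors. Ehmt2 encodes G9a, the main enzyme of H3K9 dimethylation outside heterochromatin. Its gene had 94.5 and 64.3 for Gfi1 and 82.7 and 91.4 for Lsd1, so that the Gfi1 lists held both the highest and the lowest value. Ehmt1, its partner, lay between 78.97 and 90.8, and Setdb2 between 76.5 and 90.0.

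The H3K36 methyltransferases were represented by Nsd1, Nsd2, Nsd3 and Setd2. Nsd3 stood at 93.4 or above in every list and had high-confidence peaks of both factors. Nsd1, the gene mutated in Sotos syndrome, stood at 98.6 and 82.4 for Gfi1 and at 99.1 and 99.2 for Lsd1. The Lsd1 replicates of Nsd1 were nearly equal (SD 0.0392), while the Gfi1 replicates were apart (SD 11.5, n = 2). Nsd2 and Setd2 showed a similar spread, with Gfi1 at 92.2 and 66.5 for Nsd2 and at 94.6 and 70.9 for Setd2. For these genes the low value again came from the Gfi1 list of tumor 41. That list had 3 adjacent peaks at the starts of Nsd1, where each other list had 1, and only the highest was taken. It also split the 5′ peak at Nsd2, Ehmt2, Kmt2b and Setd1b, though not at Setd2. The Lsd1 list of tumor 39 did so at Nsd2 and Setd1b. Whether such splitting lowered the values was not tested.

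Dot1l is the sole known H3K79 methyltransferase. At its 5′ end it stood at 81.8 and 87.5 for Gfi1 and at 96.8 and 95.3 for Lsd1, so that both Lsd1 values lay above both Gfi1 values there. In the Gfi1 list of tumor 39 its highest peak, at 86.5, lay at another start site. The H4K20 methyltransferase genes stood high for both factors. Kmt5b, which di- and trimethylates H4K20, had 98.6 and 98.3 for Gfi1 and 94.1 and 99.2 for Lsd1. Kmt5a, the monomethyltransferase needed for chromosome compaction, had 93.5 and 97.5 for Gfi1 and 96.4 and 93.6 for Lsd1. Neither factor was higher at Kmt5a in both tumors.

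Polycomb repressive complex 2 trimethylates H3K27. Suz12, its scaffold, reached the 99.95 percentile in the Gfi1 list of tumor 39, the highest value of any enzyme gene in any list. Its score there was 3203.04, and 805 peaks of that list, those of 12 enzyme genes among them, tied at 3100. Whether this order at the top of the scores reflects stronger binding was not tested. In the other lists Suz12 stood at 93.2 for Gfi1 and at 87.3 and 93.7 for Lsd1. Eed, the subunit that reads H3K27 methylation, had 97.1 and 98.1 for Gfi1 and 83.3 and 97.1 for Lsd1. Its lower value in the Lsd1 list of tumor 39 set it apart from the other 3 lists. Ezh2, the catalytic subunit of dividing cells, lay between 84.4 and 97.2. Ezh1, its counterpart in resting cells, lay between 78.6 and 87.3 and was the lowest of the complex.

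The 12 demethylase genes had mean percentiles from 76.3 to 97.6, with a median of 92.1. High-confidence peaks of both factors were present at 10 of them, the exceptions being Kdm3b and Kdm5b. Kdm6b encodes JMJD3, which removes the Polycomb mark from H3K27. It stood at 93.3 and 98.1 for Gfi1 and at 99.7 and 99.2 for Lsd1. Kdm3a, an H3K9 demethylase induced by hypoxia, stood at 98.6 and 96.1 for Gfi1 and at 95.2 and 97.0 for Lsd1. The peak of Kdm4c, which acts on H3K9 and H3K36, also stood above 90 in every list (98.6, 96.2, 91.8 and 94.9). It lay over a start site within the gene that is shared with A230083N12Rik, and no list had a peak at the 5′ end of Kdm4c.

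Kdm1b encodes LSD2, the closest relative of Lsd1. Its gene stood at 98.6 and 89.3 for Gfi1 and 84.5 and 92.1 for Lsd1. The shared stretch, chr13:47042575-47045122, also holds the start of Tpmt. Kdm5b, which removes H3K4 methylation, was the lowest of the demethylase genes. It stood at 93.4 and 54.5 for Gfi1 and at 69.8 and 87.2 for Lsd1, so that neither factor was steady between tumors (SD 27.5 and 12.3, n = 2). Its paralogue Kdm5a lay between 93.0 and 97.3, a narrower range. Kdm3b, an H3K9 demethylase, had 93.2 and 89.0 for Gfi1 and 75.0 and 84.0 for Lsd1, and both Gfi1 values lay above both Lsd1 values. Kdm7a, an H3K9 and H3K27 demethylase, lay between 81.9 and 93.4.

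The deacetylase genes of the group stood lowest of the roles and had the widest range, with mean percentiles from 55.1 to 94.6 and a median of 75.4. High-confidence peaks of both factors were present at Hdac3 and Hdac5 alone among the 7. Hdac3, the catalytic subunit of the NCoR and SMRT corepressors, lay between 83.9 and 90.3. Its shared stretch at chr18:37954219-37956707 also holds the start of Rell2. Hdac4, Hdac5, Hdac7 and Hdac9 encode the class IIa enzymes, which act mainly as signal-regulated corepressors. Within this class Hdac4 stood at 94.6 and 89.9 for Gfi1 and at 96.9 and 97.0 for Lsd1. At Hdac4 both Lsd1 values thus lay above both Gfi1 values. Hdac5 had highest peaks of 85.0 and 83.4 for Gfi1 and 91.3 and 93.9 for Lsd1, but in each tumor the highest peaks of the factors lay at different places. At the 5′ end of Hdac5 the peak stood at 85.0 and 82.0 for Gfi1 and at 81.0 and 93.9 for Lsd1, so the order of the factors turned between the tumors. At the internal site it stood at 83.8 and 83.4 for Gfi1 and at 91.3 and 88.9 for Lsd1.

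Hdac7 stood at 75.6 and 42.1 for Gfi1 and at 73.6 and 74.8 for Lsd1, the Gfi1 value of tumor 41 being the low one. In that tumor the highest Gfi1 and Lsd1 peaks of Hdac7 lay at different start sites. At Hdac9 the highest peak stood at 64.4 in the Gfi1 list of tumor 39 and at 67.2 and 33.7 in the Lsd1 lists. The Gfi1 list of tumor 41 had no peak at any of its 7 annotated start sites. In the other lists the peaks near the Hdac9 bases printed above formed the sites chr12:34905989-34907032 and chr12:34907090-34907920, and no peak spanned the gap between these sites, which lies within the printed bases. Hdac10 encodes a polyamine deacetylase. Its highest peaks at start sites stood at 70.3 and 55.8 for Gfi1 and at 85.4 and 90.2 for Lsd1, but they do not mark the same place. In tumor 39 the Gfi1 value belongs to the 5′ end, where Lsd1 stood at 38.9, and the Lsd1 value to a peak that begins 3968 bp into the gene. A Gfi1 peak there, which begins 4147 bp into the gene and came within 1000 bp of no Hdac10 start site, stood at 92.4. Gfi1 was thus above Lsd1 at each place in tumor 39. In tumor 41 Gfi1 had peaks of 55.8 at the 5′ end and of 82.1 farther in, and a single Lsd1 peak of 7554 bp reached over both. The site merged over the lists, chr15:89121443-89129359, also holds a start of Tubgcp6. These peaks therefore cannot be assigned to Hdac10 alone. Hdac11, the class IV enzyme, had 68.9 and 57.7 for Gfi1 and 42.1 and 65.2 for Lsd1, and the factors overlapped.

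Gfi1 and Lsd1 peaks coincided at these genes, as they did at nearly every gene with peaks of both factors. A Gfi1 peak and an Lsd1 peak at a start site shared at least 1 bp at 43 genes in tumor 39, against 57.7% of all genes and 90.0% of those with a CpG-rich start. In tumor 41 this was so at 42 genes, against 53.8% and 85.5%. In both tumors it was so at 42 genes, against 53.0% and 85.0%. These shares include genes without a peak. Among all genes with peaks of both factors, 12657 of 12710 had such an overlap in tumor 39 and 11799 of 11821 in tumor 41. In both tumors it was present at 11628 of the 11653 genes with a peak in all 4 lists. When every peak was trimmed to its central 200 bp, 18 genes kept such an overlap in both tumors, against 21.5% of all genes. That share is 4716 genes, where 11628 had an overlap before trimming. The highest Gfi1 peak overlapped the highest Lsd1 peak at 37 of 43 genes (86.0%) in tumor 39, against 96.4% of all genes with both peaks. In tumor 41 it did so at 39 of 42 genes (92.9%), against 97.1%. Where they overlapped, the shared bases made up a median of 98.0% and 95.2% of the Gfi1 peak in tumors 39 and 41, and 91.9% and 91.7% of the Lsd1 peak. Over all genes the same medians were 99.5% and 98.5%, then 87.3% for Lsd1 in both tumors.

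Where the highest peaks did not overlap, the factors peaked at different places near the starts of one gene. In tumor 39 these genes were Kdm2b, Kdm4b, Dot1l, Hdac5, Hdac9 and Hdac10. In tumor 41 they were Kdm2a, Hdac5 and Hdac7. Hdac5 was the only gene in both tumors.

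Neither factor stood higher over the group as a whole. The median over genes of the mean percentile was 90.8 for Gfi1 (SD of the tumors' medians 4.86, n = 2) and 91.5 for Lsd1 (SD 3.70, n = 2), against 81.5 and 80.9 over all genes. The exact permutation test on the tumors' medians gave p = 1 (two-sided, smallest possible 0.333). It ignores the pairing by tumor, and with 2 tumors it could not have shown a difference. The median difference of Lsd1 from Gfi1 over the 42 genes with a peak in all lists was -4.96 percentile points in tumor 39 and 4.35 in tumor 41. Over all 11653 such genes it was -4.76 and 4.76. Ranked only among the highest start-site peaks of all genes, the median difference was -11.9 and 6.37 for the enzyme genes and -4.67 and 3.87 for all genes. On both scales the sign turned between the tumors for the enzyme genes and for all genes.

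**Figure D3:**
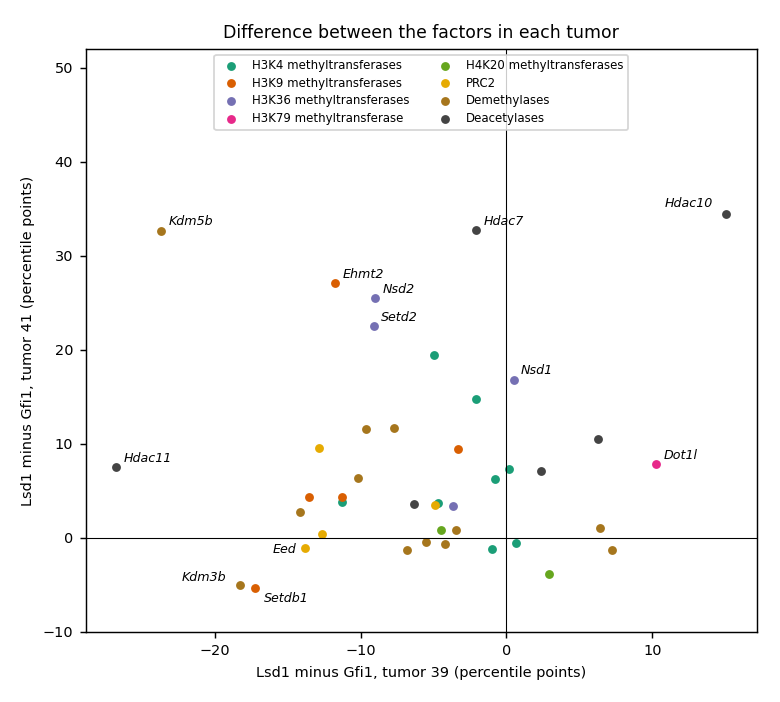
Difference between the Lsd1 and the Gfi1 percentile of each enzyme gene in tumor 39 (horizontal axis) and tumor 41 (vertical axis), in percentile points, coloured by role. Of 42 genes, 25 lie in the upper left, where Lsd1 was below Gfi1 in tumor 39 and above it in tumor 41, and 7 lie in each of the quadrants where both tumors had the same sign.

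Lsd1 was below Gfi1 in tumor 39 at 32 of the 42 genes, against 70.9% of all genes. In tumor 41 it was above Gfi1 at 32 genes, against 70.6%. Both held at 25 genes (59.5%), against 50.8%. The opposite turn was seen at Kdm4a, Kmt2e and Kmt5a, against 9.28% of all genes. Lsd1 was above Gfi1 in both tumors at 7 genes (16.7%), against 19.8%. These were Setd7, Nsd1, Dot1l, Kdm6b, Hdac4, Hdac5 and Hdac10, and 3 of them encode deacetylases. It was below Gfi1 in both at 7 genes, against 20.1%, namely Kmt2c, Setdb1, Eed, Kdm2b, Kdm3b, Kdm4c and Kdm5a. These values compare the highest peaks, which at Dot1l, Hdac5, Hdac10 and Kdm2b lay at different places in at least 1 tumor. At the 35 genes whose highest peaks overlapped in both tumors, Lsd1 was above Gfi1 in both at 4 (Kdm6b, Setd7, Nsd1 and Hdac4), against 19.4% of all such genes. It was below Gfi1 in both at 6, against 20.5%, and 22 turned from below in tumor 39 to above in tumor 41, against 50.6%. In the Gfi1 list of tumor 39 the peaks of Setd7, Nsd1 and Kmt2e were among the 805 tied at a score of 3100, placed at 98.6. Lsd1 was above Gfi1 there by 0.145, 0.484 and 0.662 points, so these signs rest on the mean rank given to the tie.

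Between the highest peaks, the largest differences of one sign were seen at Hdac10, Dot1l and Nsd1 for Lsd1, and at Kdm3b, Setdb1 and Eed for Gfi1. Those of Hdac10 (15.0 points in tumor 39 and 34.4 in tumor 41) and of Dot1l (10.3 and 7.83) compare peaks that did not overlap in tumor 39, and at Hdac10 the order was the opposite at each place in that tumor, as given above. At Nsd1, where the peaks overlapped, Lsd1 was higher by 0.484 and 16.8 points, the former against a Gfi1 peak in the group tied at 3100. The difference of Lsd1 from Gfi1 was -18.3 and -4.999 at Kdm3b, -17.2 and -5.33 at Setdb1 and -13.8 and -1.04 at Eed. The gap at Nsd1 and at Eed thus came nearly whole from 1 tumor. That at Kdm3b in tumor 39 compares a split Lsd1 peak with an unsplit Gfi1 peak.

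Between the tumors, the mean of both factors differed most at Hdac7, Ehmt2 and Kdm5b. It was higher in tumor 39 by 16.2 points at Hdac7, by 10.8 at Ehmt2 and by 10.7 at Kdm5b. For Hdac7 the factors' peaks of tumor 41 lay at different start sites. At each of these genes the Gfi1 list of tumor 41 held the lowest value. That list was also the shortest of the 4.

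The order of the genes was compared between the lists. Across the 42 genes, which are not independent replicates and share the libraries, Spearman's rho between the tumors was 0.817 for Lsd1 and 0.588 for Gfi1. Over all genes with a peak in the 4 lists it was 0.882 and 0.774. Between the factors it was 0.519 in tumor 39 and 0.653 in tumor 41, against 0.761 and 0.780 over all genes. Some of the ranks were tied, since 12 of the genes had the same score of 3100 in the Gfi1 list of tumor 39 and 6 had it in the Lsd1 list of tumor 41.

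The peaks were wider than those of the median gene. For Gfi1 the highest peak had a median width of 2887 bp in tumor 39 and 2741 bp in tumor 41, and for Lsd1 of 3152 bp and 3077 bp. Over all genes with a peak it was 2085.5 bp, 2185 bp, 2516 bp and 2380 bp, and over those with a CpG-rich start 2174 bp, 2271 bp, 2595 bp and 2473 bp. The Lsd1 peak was wider than the Gfi1 peak at 30 of 43 genes (69.8%) in tumor 39, against 70.3% of all genes with both peaks, and the median difference was 208 bp over the group and 231 bp over all genes. In tumor 41 it was wider at 25 of 42 genes (59.5%), against 69.2%, with median differences of 97 bp and 233 bp. Width and score are not separate measures, since Spearman's rho between them over the enzyme genes ran from 0.210 to 0.599 in the 4 lists.

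**Figure D4:**
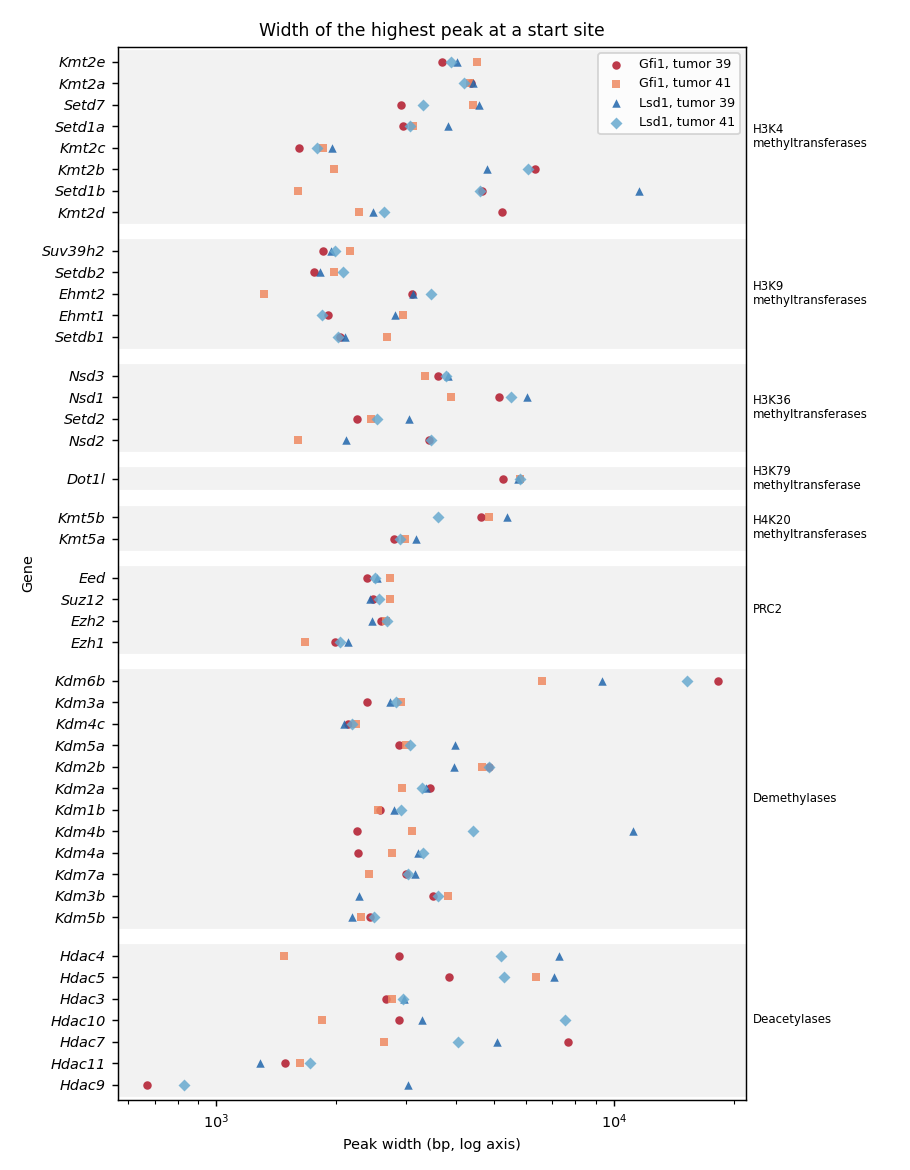
Width in bp, on a log axis, of the highest peak at a start site of each enzyme gene in the 4 libraries, with genes grouped by role and marked as in the plot of percentiles by gene. Kdm6b lies farthest to the right, with 6606 to 18232 bp, and Hdac9 has the narrowest peak, with 669 bp in the Gfi1 list of tumor 39.

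Kdm6b, Dot1l and Hdac5 had the widest peaks by mean width. At Kdm6b the Gfi1 peak spanned 18232 bp and 6606 bp, and the Lsd1 peak 9322 bp and 15278 bp. The gene itself is 15168 bp long, so that the peaks of Gfi1 in tumor 39 and of Lsd1 in tumor 41 were longer than it. The bases shared by all 4 peaks were chr11:69408023-69414628, which cover the 5′ end printed above. At the 5′ end of Dot1l the peaks spanned 4487 bp and 5815 bp with Gfi1, then 5736 bp and 5793 bp with Lsd1. The highest Gfi1 peak of Dot1l in tumor 39, of 5263 bp, lay at its second site. Hdac5 had Gfi1 peaks of 3843 bp and 6372 bp and Lsd1 peaks of 7077 bp and 5292 bp.

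Several of the genes had separate peaks near their start sites. At least 2 separate peaks at start sites were present in all 4 lists at 10 genes, against 5.48% of all genes and 9.09% of those with a CpG-rich start. These were Kdm2a, Kdm2b, Kdm4b, Kmt2b, Kmt2c, Kmt5a, Setd1b, Dot1l, Hdac4 and Hdac5. The larger number of annotated start sites in this group moved with this count, and its part in it was not tested. Merged over the lists, the peaks formed 77 sites at start sites of the 43 genes, of which 52 were in all 4 lists and 12 in 1 list. A single site was found at 25 genes. At least 2 merged sites, each present in all 4 lists, were found at 7 genes (16.3%), against 4.79% of all genes. These were Kdm2a, Kdm2b, Kdm4b, Kmt2c, Kmt5a, Dot1l and Hdac4.

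Kdm2b encodes an H3K36 demethylase that binds unmethylated CpGs and brings variant Polycomb complexes to CpG islands. It has 19 annotated start sites and carried 8 merged sites, 4 of them in all 4 lists. The site at its 5′ end stood at 96.2 and 94.3 for Gfi1 and at 83.8 and 93.9 for Lsd1. A second site, at chr5:122948668-122955103, stood at 84.6 and 73.2 for Gfi1 and at 90.7 and 90.0 for Lsd1. Gfi1 was higher at the 5′ end than at the internal site in both tumors, whereas the Lsd1 list of tumor 39 was higher at the internal site. In both tumors Lsd1 was below Gfi1 at the 5′ end and above it at the internal site. Kdm2a, its paralogue, had a site at its 5′ end, at 98.6 and 84.7 for Gfi1 and 88.4 and 95.6 for Lsd1. A second Kdm2a site, 62948 bp into the gene, stood at 78.1 and 89.3 for Gfi1 and at 81.2 and 87.0 for Lsd1.

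At Kdm4b, an H3K9 and H3K36 demethylase gene, the site at the 5′ end had 94.8 and 85.0 for Gfi1 and 81.4 and 96.7 for Lsd1. Its internal site had 79.7 and 63.1 for Gfi1 and 87.1 and 76.9 for Lsd1. Kmt5a had 3 sites in all 4 lists, of which that at the 5′ end was the highest in every list. The others stood between 48.3 and 77.8. Dot1l had a site at its 5′ end, at 81.8 and 87.5 for Gfi1 and at 96.8 and 95.3 for Lsd1. Its second site, at chr10:80789836-80800424, stood at 86.5 and 68.1 for Gfi1 and at 79.9 and 93.6 for Lsd1. This second site also holds the starts of Plekhj1 and Sf3a2, so its peaks cannot be assigned to Dot1l alone.

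At Hdac4 the highest site was an internal start. The site at chr1:92176783-92184073, which begins 11626 bp into the gene, was the one in the upper part of every list, as given above. At the 5′ end the peak stood at 7.19 and 13.5 for Gfi1 and at 46.4 and 31.4 for Lsd1. Hdac7 was bound weakly at its 5′ end too, with 52.4 in the Gfi1 list of tumor 39, no peak in that of tumor 41, and 12.6 and 0.0512 in the Lsd1 lists. Its start site region at chr15:97807597-97815268 was the only one present in all 4 lists, at 75.6 and 42.1 for Gfi1 and at 73.6 and 62.2 for Lsd1.

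**Figure D5:**
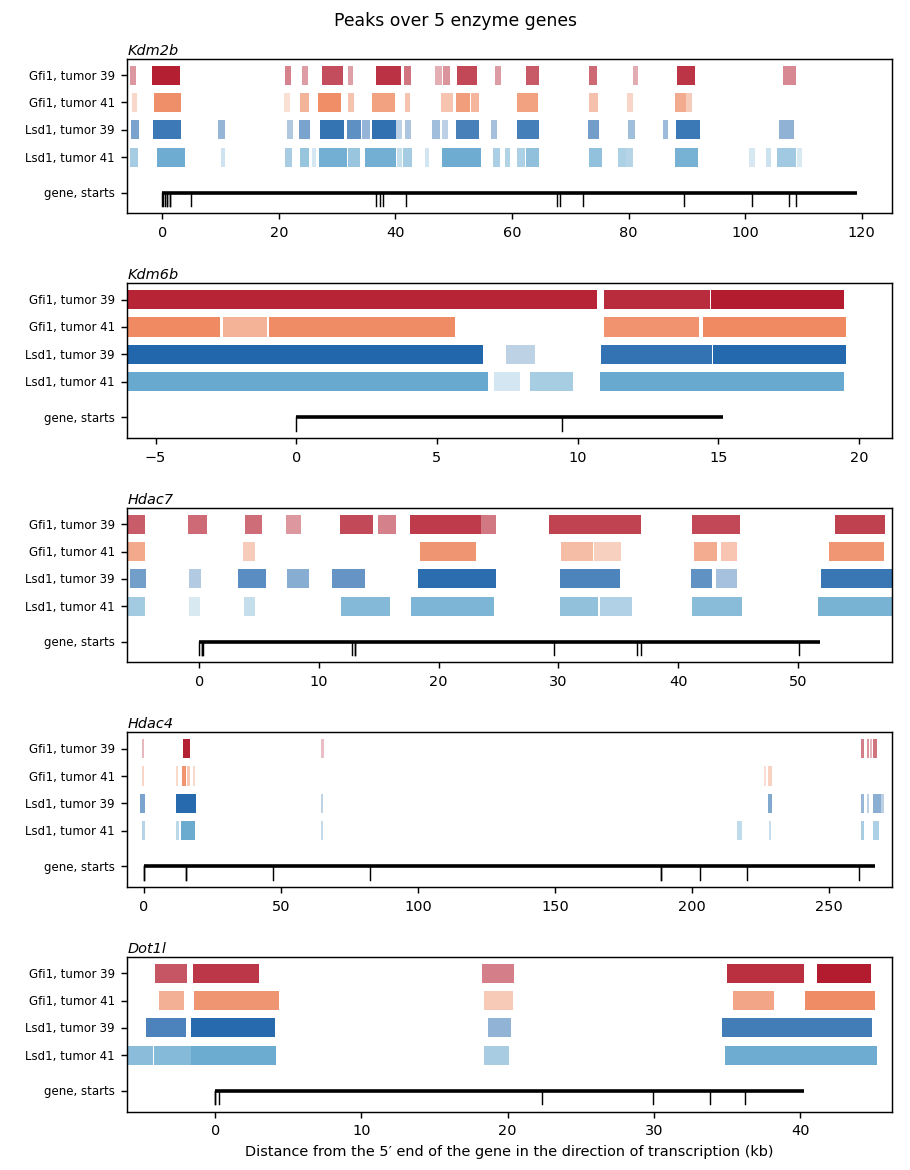
Peaks of the 4 libraries over Kdm2b, Kdm6b, Hdac7, Hdac4 and Dot1l, by distance in kb from the 5′ end of each gene in the direction of transcription. Bars are peaks, darker where the score percentile is higher, the black line is the gene and the ticks below it are annotated start sites. Kdm2b carries 8 merged sites at start sites, and at Hdac4 the dark bars begin 11626 bp into the gene.

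Some peaks lay on promoters that the enzyme gene shares with a neighbour. The highest peaks of all 4 lists shared a stretch at 34 of 42 genes, against 94.3% of all genes with a peak in every list. At 14 of these 34 (41.2%) the stretch also held the start of another gene, against 37.4%. Examples are Kdm1b with Tpmt, Kdm5a with Ccdc77, Setdb2 with Cab39l and Hdac3 with Rell2. The highest peak covered an annotated start of the enzyme gene itself in all 4 lists at 37 of the 42 genes. Over all genes it did so at 10807 of the 11653 with a peak in every list. Counted with genes that lack a peak, this was 37 of 43 against 49.3%.

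The sequence around the start sites was dense in CpG. The largest count of CpGs within 500 bp of a start site had a median of 105, against 50 over all genes and 70 over the genes with a peak in all 4 lists. The 200 bases upstream of the start site nearest to the peaks, or of the 5′ end where a gene had no peak, held a median of 23 CpGs (range 1 to 46), against 9 for all genes. AATC, the core of the Gfi1 motif, or its reverse complement GATT, was found there at 18 of the 43 genes (41.9%), against 56.8% of all genes. The longer AAATCAC, which contains AATC, or its reverse complement GTGATTT was found at 0 of 43 genes, against 1.99% of all genes. Among the printed stretches, that of Kdm6b held 1 AATC match and the others held 0. A match of this kind marks letters and not a bound site.

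Other enzymes of the same pathways, which were not members of the group, were also widely bound. Of 38 such genes, 34 had a peak in all 4 lists, against 53.1% of all genes. High-confidence peaks of both factors were present at 11, against 19.5%. The median of their mean percentiles was 78.7, against 91.1 for the group. By list their median was 85.7 and 77.5 for Gfi1 and 78.8 and 79.7 for Lsd1. Over all genes with a peak it was 82.5, 77.4, 79.03 and 81.0 in the same order. Of the 38, 6 lie on X and 2 on Y, against 0 genes of the group. A peak in all 4 lists was present at 29 of the 30 autosomal ones. Kdm1a, which encodes Lsd1 itself, stood at 85.7 and 59.8 for Gfi1 and at 67.1 and 84.6 for Lsd1. The genes of its partner deacetylases differed from each other. Hdac2 stood at 99.86 and 94.2 for Gfi1 and at 91.6 and 94.7 for Lsd1, whereas Hdac1 stood at 87.5 and 73.7 and at 81.2 and 84.4. Setd5 and Setd3 reached 98.07 or more in every list, within the range of the highest genes of the group. The 38 other enzymes were not sorted by role, so the order of the roles given above holds for the group alone.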

How the data were processed

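Per the submitters' processing notes and the methods of the study, reads were aligned to mm10 with BWA 0.6.2, duplicates were removed and peaks were called in each library with MACS at default parameters against input chromatin. The deposited lists give a position and a score for each peak, and the authors' definition of the score is not given in the sources used here. No score was below 50. The score was used only to rank peaks within a list.

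Start sites came from GENCODE M21 for GRCm38 (132629 distinct sites), where the authors used release M9. Values of each enzyme gene were averaged over the 2 tumors of a factor, with the SD as the error. The factors were compared within a tumor, since same-numbered libraries come from one tumor. The high-confidence rule is modelled on that of the study, with the score in place of the enrichment. It gave 4387 Gfi1 and 5181 Lsd1 peaks, which are not the study's own sets.

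The genes described and the lists were chosen with earlier results of these data known. All 43 genes could be named. Values in every list were given for the 6 highest and 6 lowest by mean percentile, for genes that lacked a peak, for the 3 largest differences between factors in each direction and between tumors, for the 3 widest, and for genes with 2 or more peaks in all lists; some others were added. Of the other enzymes, Kdm3c was matched as Jmjd1c. Upstream windows of 200 bases were read from the GRCm38.p6 genome of RefSeq and trimmed to bases outside annotated exons, a step added after the lists had been read. The counting steps were tested on simulated data. Python 3.11.15, numpy 2.4.6, scipy 1.17.1, pysam 0.24.0 and matplotlib 3.10.9 were used. The alternatives varied the start site window, the gene assignment, the score cutoff, the overlap, the pairing and the libraries. The input was not analysed here.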

Additional observations from a re-analysis of the deposited data

How the results depend on the processing

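Of 133 alternative values, 125 stayed within 1.5 times the count or within 1 SD of the value reported, and 8 moved. Some of the 125 could not move, since leaving out a library of 1 factor does not touch the percentile and width of the other. The limits were also wide. The count with a peak in all 4 lists fell from 42 to 29 in the upper 20% of the score and stayed within them. So did differences of Lsd1 from Gfi1 of either sign. Of the 8 that moved, the high-confidence count of both factors was 13 at the upper 10% of the score, the count with overlapping peaks in both tumors was 18 with peaks trimmed to 200 bp, and the median percentile among the highest peaks of all genes was 76.7 for Gfi1 and 76.3 for Lsd1. The median Lsd1 width was 3180.5 bp where the peak had to cover a start site and 3041 bp with 1 start site per gene, a setting chosen after seeing the data, against 3096.5 bp. Leaving out 1 library gave median widths from 2699.25 bp to 2887 bp for Gfi1 and from 3077 bp to 3152 bp for Lsd1, high-confidence counts from 25 to 34, and a difference of Lsd1 from Gfi1 from -4.92 to 4.35 percentile points. Without the pairing by tumor (no replicate block), 42 genes had overlapping peaks, as with it. The median difference, -0.294, is the same by construction whichever libraries are paired, so it does not test the pairing. Over the 35 genes whose highest peaks overlapped in both tumors, a setting also chosen after seeing the data, it was -0.495. With 1 start site per gene, 40 genes had a peak in all 4 lists, Kdm4c, Hdac7 and Hdac9 being the exceptions, against 49.7% of all genes. The lists hold no read counts, so whether depth limits the weak peaks was not tested.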

Other observations

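Peaks inside the genes, more than 1000 bp from any annotated start site, were not part of the comparisons above. They were present at 18 and 14 of the 43 enzyme genes for Gfi1 and at 16 and 18 for Lsd1, in tumors 39 and 41. Of all protein-coding genes, 20.7% and 14.8% held such a Gfi1 peak, and 17.1% and 18.6% such an Lsd1 peak. The enzyme genes are longer, with a median of 45561 bp against 17425 bp, and the part of length in these counts was not tested. Merged over the lists, 90 such sites lay in 22 of the genes, and 15 of them, in 8 genes, were in all 4 lists.

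Kdm2b held 5 of these 15 sites and Hdac7 held 3. The Kdm2b site at chr5:122955820-122963092 stood at 69.4 and 95.9 for Gfi1 and at 88.1 and 90.6 for Lsd1. In the Gfi1 list of tumor 41 this internal site was above the 94.3 of the Kdm2b 5′ end. The Hdac7 site at chr15:97819692-97826884 stood at 80.2 and 86.7 for Gfi1 and at 93.6 and 81.4 for Lsd1. In every list this site was above the highest Hdac7 peak at a start site. Kdm4a held 2 of the sites, and Setd7, Setd1b, Dot1l, Hdac5 and Hdac9 held 1 each. The Hdac9 site, at chr12:34682067-34684237, was at 14.8 and 61.2 for Gfi1 and at 60.8 and 51.9 for Lsd1, so Hdac9 did carry a Gfi1 peak within the gene in tumor 41.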
